A study of Homo sapiens with 24 samples.

Results

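The genes described here are 10 regulators and targets of the cellular stress response: ATF4, ATF3, ATF5, DDIT3, CEBPB, CEBPG, TRIB3, CHAC1, PPP1R15A, and FGF21. They were found by gene symbol in the count table, which holds 26645 gene entries, and all 10 passed the filter on low counts that left 14741 genes for testing. RNA was sequenced in 24 libraries from MB468 and MB468res-R8 cells. MB468 is a triple-negative breast cancer cell line that needs methionine (Met) to proliferate. MB468res-R8 is 1 clone derived from MB468 that also grows on homocysteine (Hcy), the precursor of Met. Both lines were grown in DMEM with dialyzed FBS, vitamin B12, glutamine, cysteine, and 100 µM Met (Met+ medium, 0 h), or were collected at 0.5, 2, and 12 h after a switch to the same medium without Met and with 370 µM Hcy (Met-Hcy+ medium), with 3 libraries in each of the 8 groups. Every later library is compared with 0 h, and no library analysed here comes from cells switched to fresh Met+ medium or kept in it for 12 h, so the effects of the switch itself, of time, and of Met loss cannot be told apart.

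ATF4 is the central transcription factor of the integrated stress response. When a kinase phosphorylates the initiation factor eIF2, most translation slows while the ATF4 mRNA is translated more, so that ATF4 activity can rise with little change in its mRNA. ATF4 and its partners of the C/EBP family switch on further transcription factors, among them ATF3 and CHOP (the product of DDIT3), and targets that act in amino acid and glutathione metabolism, in cell death, and in feedback on the pathway itself.

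Library totals of the deposited counts ranged from 11745553 to 36496655 (median 20503827). Values below are normalized counts, which are counts scaled to a common library size with edgeR's TMM factors, and log2 fold changes ± standard error (SE) from edgeR's quasi-likelihood test in 1 model with a mean for each group. A gene was called changed at a Benjamini-Hochberg adjusted p under 0.05 over all tested genes, and n = 3 libraries per group throughout. The defining markers of these cells were present in every library (EPCAM at 296 to 428 and EGFR at 2105 to 4544 CPM, which are counts scaled to a common library total). Of the hormone receptor genes, PGR was at 0 in 18 libraries and ESR1 was at 4.07 to 22.1 CPM. PTPRC, a marker of blood cells, reached at most 0.192 CPM, and PECAM1, of endothelial cells, at most 2.82. Of the fibroblast markers, COL1A2 reached at most 0.0602 CPM, while COL1A1 was at 15.5 to 72.6 CPM in every library. In MB468 at 2 h, replicate 2 stood apart in 1 small nuclear RNA, RN7SK, at 687 CPM against 2.49 to 9.81 in the other 23 libraries. A change of all cells and a change of some cells cannot be told apart in bulk RNA, nor can fewer cells of a type and less RNA per cell.

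The 10 genes lie on 6 chromosomes. In GRCh38 coordinates of GENCODE 44, the transcription factor genes are ATF4 (chr22:39519695-39522683), ATF3 (chr1:212565334-212620777), ATF5 (chr19:49928702-49933935), DDIT3 (chr12:57516588-57521737, reverse strand), CEBPB (chr20:50190830-50192668), and CEBPG (chr19:33373685-33382686). The targets are TRIB3 (chr20:362835-397559), CHAC1 (chr15:40952962-40956512), PPP1R15A (chr19:48872212-48876059), and FGF21 (chr19:48755524-48758333). The kit does not mark the strand of a read, so reads from exons shared with a gene on the opposite strand cannot be told apart; this concerns ATF5, which shares exonic sequence with NUP62, DDIT3, which shares it with MARS and MBD6, and CEBPB, which shares it with CEBPB-AS1. Over the 24 libraries NUP62 had 62788 counts against 15720 for ATF5, MARS 252737 and MBD6 37376 against 5280 for DDIT3, and CEBPB-AS1 710 against 32807 for CEBPB.

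Since many of these genes moved together, their promoters were searched in RefSeq windows of GRCh38.p14 from 250 bases before to 50 bases after each annotated start of a gene, on both strands. The letters TGATGCAA, a composite site of ATF4 and C/EBP factors, were present in 3 of 10 members, in 1 of 20 other ATF4 and CHOP target genes found in that table, and in 1.08% of its 27305 genes (0.866% of its 35116 windows). Of the further lists described below, TGATGCAA was in 1 of 18 ATF6 and XBP1 targets and 1 of 7 relatives of the members and FGF21 receptors. It was in 0 of 13 genes of the eIF2 list and 0 of 18 of the bZIP list. The letters TGACGTCA, the cyclic AMP response element bound by CREB and ATF factors, were present in PPP1R15A, 1 of 10 members, and in 2.25% of all genes. They were also in 3 of 18 genes of the bZIP list, and in 0 genes of the remaining lists. The stretches that hold either match are shown to let the letters and their surroundings be read. Each is written 5′ to 3′ on the forward strand of the chromosome, with the matched letters in capitals; in CHAC1 and FGF21 the site lies on the opposite strand and reads TTGCATCA.
CEBPG (chr19:33374041-33374108): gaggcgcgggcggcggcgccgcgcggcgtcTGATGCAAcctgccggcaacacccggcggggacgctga
CHAC1 (chr15:40953252-40953279): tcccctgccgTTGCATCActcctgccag
FGF21 (chr19:48755440-48755507): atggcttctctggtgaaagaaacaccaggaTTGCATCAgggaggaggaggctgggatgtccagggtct
PPP1R15A (chr19:48872353-48872380): cctctcttcgTGACGTCAgcacgccggg
The matches begin at position -42 from a RefSeq start in CEBPG, -209 in CHAC1, -54 in FGF21, and -58 in PPP1R15A. By the GENCODE coordinates given above, however, the matches in CEBPG, CHAC1, and PPP1R15A lie inside the gene. Only the FGF21 match lies before the GENCODE start of its gene. The stretches shown for CHAC1 and PPP1R15A overlap a GENCODE exon of the gene, and the stretch for CEBPG does not. The shorter AP-1 letters TGANTCA were present in ATF5 and DDIT3 and in 9.37% of all genes. The endoplasmic reticulum stress response element was found in 0 of the 10 members, in 0.0916% of all genes, and in 5 of 18 ATF6 and XBP1 target genes. A match is a description of the letters, and whether any factor bound there was not measured.

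Most of the genes changed within 0.5 h of the switch in both lines, and at 12 h the responses of the lines differed for 9 of the 10. In MB468, 9 of the 10 genes rose and 1, ATF5, fell at 0.5 h and again at 2 h; of all tested genes, 33.9% were called at 0.5 h (17.6% higher, 16.4% lower) and 16.3% at 2 h (8.88% higher, 7.47% lower). At 12 h, 9 genes were higher than at 0 h in MB468 and ATF3 did not pass the test, where 70.8% of all genes were called (36.1% higher, 34.7% lower). In MB468res-R8, 8 genes rose and 1 fell at 0.5 h (33.7% of all genes called, 17.4% higher and 16.3% lower), 3 rose at 2 h (4.37% called, 2.52% higher and 1.85% lower), and at 12 h 2 rose and 7 fell (61.3% called, 30.2% higher and 31.1% lower). With spike-in totals as library sizes, the genes called higher numbered 6, 5, and 7 at 0.5, 2, and 12 h in MB468 with 1 called lower at each time. In MB468res-R8 under that scaling 7 rose and 1 fell at 0.5 h, 1 rose at 2 h, and 2 rose and 4 fell at 12 h. Those that lost the call there were ATF4 (-0.20, edgeR adjusted p = 0.193), CEBPG (-0.16, 0.333), and CHAC1 (-0.33, 0.0821). Of all genes called in MB468 under that scaling, 459 of 3287 were higher at 0.5 h, 240 of 9511 at 2 h, and 2538 of 8460 at 12 h. Of those called in MB468res-R8, 1194 of 2023 were higher at 0.5 h, 115 of 180 at 2 h, and 2766 of 5887 at 12 h. Over the 10 genes the median log2 fold change went from 0.71 at 0.5 h to 0.85 at 2 h and 1.36 at 12 h in MB468, and from 0.85 to 0.16 and -0.28 in MB468res-R8, while the median of all tested genes stayed between -0.02 and 0.01.

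**Figure D1:**
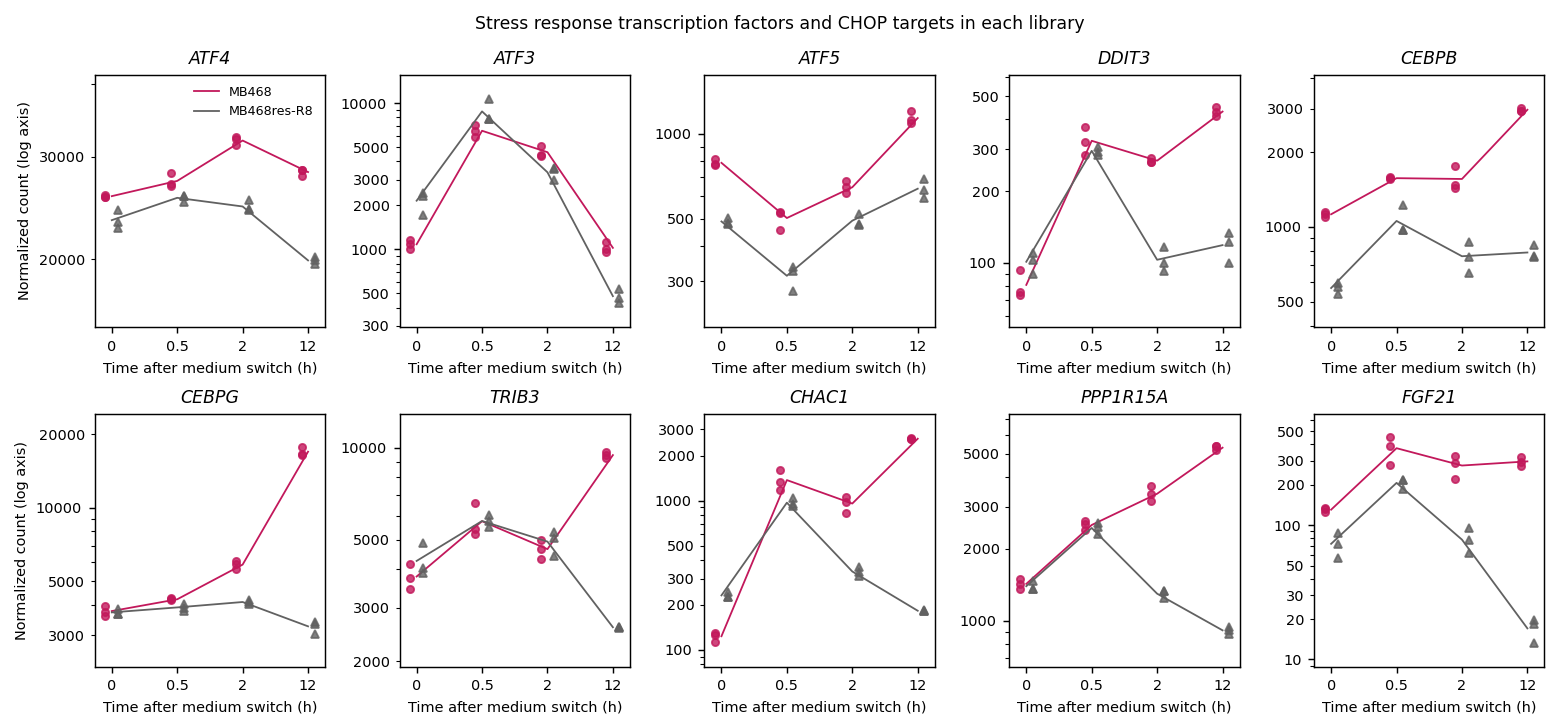
Normalized counts (vertical axis, logarithmic) of each gene in each library at 0, 0.5, 2, and 12 h after the medium switch (horizontal axis, not to scale), with MB468 as magenta circles, MB468res-R8 as gray triangles, and lines through the group means (n = 3). CHAC1 in MB468 lies between 113 and 131 at 0 h and between 2580 and 2608 at 12 h, whereas in MB468res-R8 it peaks at 921 to 1039 at 0.5 h and ends at 181 to 186.

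A simple rule described the course. A gene was early if called higher at 0.5 h or 2 h, transient if it was early and then called lower at 2 h than at 0.5 h after a rise at 0.5 h, or lower at 12 h than at 2 h, sustained if called higher at both 2 h and 12 h and not called lower at 12 h than at 2 h, and late if called higher only at 12 h. In MB468, 9 genes were early, 5 transient, and 7 sustained, with TRIB3, CHAC1, and FGF21 meeting both rules because they dipped at 2 h and were still raised at 12 h. Of all genes tested in MB468, 22.6% were early, 16.3% transient, 4.57% sustained, and 24.1% late. Of the 3332 early genes there, 2406 were transient. In MB468res-R8, 8 genes were early and all 8 were transient, and CEBPB alone also met the rule for sustained. Of all tested genes there, 19.1% were early, 17% transient, 0.468% sustained, and 20.4% late. Of the 2818 early genes, 2501 were transient, so that most early genes of that line took this course. The highest group mean fell at 12 h for 7 genes in MB468 and at 0.5 h for 8 genes in MB468res-R8, in which 7 genes had their lowest mean at 12 h. The times of the highest and lowest means were not counted over all tested genes. ATF5 was late in both lines, and CEBPG met no rule in MB468res-R8. The sustained course of CEBPB in both lines and of CEBPG and TRIB3 in MB468 rests on calls at 2 h that did not pass with spike-in totals as library sizes. Under that scaling ATF4 was not early, and so not transient, in either line. The dips that made TRIB3 and FGF21 transient in MB468 were each lost without certain single libraries, as given below.

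ATF4, the hub of the pathway, moved least of the 10 genes in MB468, where its group means spanned 1.25-fold. In MB468 its 3 libraries had 25619, 25791, and 25593 normalized counts at 0 h, 26748, 28137, and 26886 at 0.5 h, 32361, 31369, and 32167 at 2 h, and 27775, 28506, and 28404 at 12 h. All later libraries were above those at 0 h, with those at 2 h highest. The log2 fold changes against 0 h were 0.09 ± 0.0337 (edgeR adjusted p = 0.0428), 0.32 ± 0.0338 (1.35e-09), and 0.14 ± 0.0336 (0.000423) at 0.5, 2, and 12 h. With spike-in totals as library sizes these 3 changes had the opposite sign (-0.13, -0.10, and -0.10) and did not pass the test; the median of all genes moved by -0.20, -0.42, and -0.23 under that scaling, so that ATF4 was still above that median. The call at 0.5 h was lost on leaving out any 1 of the 6 libraries compared, with edgeR adjusted p from 0.0547 to 0.323.

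In MB468res-R8, ATF4 had 23144, 24274, and 22622 normalized counts at 0 h, 25702, 25069, and 25724 at 0.5 h, 24320, 25235, and 24369 at 2 h, and 19611, 20177, and 19969 at 12 h. The 12 h libraries were the lowest of the 4 time points. It rose at 0.5 h by 0.13 ± 0.0338 (edgeR adjusted p = 0.00266) and was lower than at 0 h by 12 h, at -0.23 ± 0.0338 (2e-07). With spike-in scaling neither passed (0.17, edgeR adjusted p = 0.457, and -0.20, 0.193). MB468res-R8 and MB468 differed in their ATF4 response at 12 h by -0.37 ± 0.0477 (edgeR adjusted p = 1.68e-08) and at 2 h by -0.24 ± 0.0477 (0.00077), the latter of the opposite sign, 0.14, under spike-in scaling.

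ATF3, a rapidly induced transcription factor of the same family, rose and fell back in both lines. In MB468 it had 1094, 999, and 1158 normalized counts at 0 h, 7070, 5899, and 6450 at 0.5 h, 4443, 4333, and 5078 at 2 h, and 1120, 1001, and 953 at 12 h. The libraries at 0.5 h and 2 h were all far above those at 0 h, and the 12 h libraries overlapped those at 0 h. The log2 fold change was 2.59 ± 0.15 at 0.5 h (edgeR adjusted p = 2.69e-10), 2.10 ± 0.152 at 2 h (1.49e-08), and -0.07 ± 0.157 at 12 h (0.702, 95% interval -0.40 to 0.26). The last was called lower with spike-in scaling (-0.32, edgeR adjusted p = 0.0339).

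MB468res-R8 started higher, with 2301, 2448, and 1708 normalized counts of ATF3 at 0 h, and went to 10688, 7813, and 7838 at 0.5 h, 3543, 3582, and 2972 at 2 h, and 431, 540, and 466 at 12 h. The groups at 0, 0.5, 2, and 12 h did not overlap one another. The changes against 0 h were 2.02 ± 0.141 at 0.5 h (edgeR adjusted p = 2.79e-09), 0.64 ± 0.142 at 2 h (0.0113), and -2.18 ± 0.169 at 12 h (3.94e-09), and the fall from the highest to the lowest group mean was 18.3-fold, against 6.32-fold in MB468. The call at 2 h was lost without MB468res-R8 replicate 3 at 0 h or replicate 1 or 2 at 2 h (edgeR adjusted p 0.0516 to 0.0819). It was also lost in a fit to only the libraries compared (0.64, edgeR adjusted p = 0.197). ATF3 was 2.01-fold higher in MB468res-R8 than in MB468 at 0 h (edgeR adjusted p = 2.64e-05) and 2.15-fold lower at 12 h (1.8e-05).

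ATF5, a relative of ATF4 that is controlled at translation in a similar way, fell at 0.5 h and was higher at 12 h in both lines. In MB468 it had 780, 813, and 774 normalized counts at 0 h, 528, 524, and 456 at 0.5 h, 679, 645, and 615 at 2 h, and 1089, 1116, and 1206 at 12 h; in MB468res-R8 it had 480, 484, and 502, then 327, 277, and 336, then 477, 478, and 522, then 692, 633, and 591. In both lines the 0.5 h libraries were the lowest and the 12 h libraries the highest. The fall at 0.5 h was -0.64 ± 0.0736 in MB468 and -0.63 ± 0.0804 in MB468res-R8, and the difference between the lines was 0.00 ± 0.112 (edgeR adjusted p = 0.999, 95% interval -0.22 to 0.23). The rise at 12 h was 0.53 ± 0.0677 and 0.39 ± 0.0741, a difference of -0.14 ± 0.1 (edgeR adjusted p = 0.248, 95% interval -0.34 to 0.07). With spike-in scaling the rise in MB468 was 0.29 and did not pass (edgeR adjusted p = 0.0616). NUP62, which shares exonic sequence with ATF5, changed by -0.12 ± 0.0525 at 0.5 h (edgeR adjusted p = 0.0791) and rose by 0.48 ± 0.0505 at 12 h (3.63e-11) in MB468 and did not pass in MB468res-R8 at 12 h (0.08 ± 0.052, 0.167), and its part in the ATF5 counts was not tested.

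DDIT3, which encodes CHOP, a factor known for its role in stress-induced cell death, rose in both lines at 0.5 h and remained high at 2 h in MB468. In MB468 it had 73.6, 93.2, and 75.9 normalized counts at 0 h, 321, 284, and 369 at 0.5 h, 265, 264, and 275 at 2 h, and 429, 450, and 413 at 12 h. No later library came near those at 0 h. The log2 fold changes were 1.98 ± 0.122 (edgeR adjusted p = 8.31e-17), 1.72 ± 0.126 (5.77e-14), and 2.39 ± 0.118 (5.31e-21), the last being 5.26-fold. In MB468res-R8 it had 110, 103, and 90.2 at 0 h, 284, 293, and 307 at 0.5 h, 100, 116, and 92.5 at 2 h, and 133, 100, and 123 at 12 h. Only the 0.5 h libraries stood above 0 h, and those at 2 and 12 h overlapped it. The change was 1.53 ± 0.119 at 0.5 h (edgeR adjusted p = 8.78e-14), 0.04 ± 0.131 at 2 h (0.962), and 0.23 ± 0.129 at 12 h (0.127), and the last was called without MB468res-R8 replicate 2 at 12 h (0.042). MARS and MBD6, which share exonic sequence with DDIT3, changed by -0.03 ± 0.0396 and -0.09 ± 0.0587 in MB468 at 12 h, neither of which passed the test (edgeR adjusted p = 0.523 and 0.191). In MB468res-R8 at 12 h MARS fell by 0.63 (± 0.0403, edgeR adjusted p = 6.55e-17) and MBD6 by 0.36 (± 0.0624, 4.56e-06), and their responses differed between the lines by -0.60 ± 0.0564 (5.41e-12) and -0.27 ± 0.0857 (0.00625). The part of these genes in the DDIT3 counts and in its line difference was not tested.

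CEBPB encodes a C/EBP factor that pairs with ATF4 and with CHOP. Its 3 MB468 libraries had 1095, 1128, and 1152 normalized counts at 0 h, 1570, 1561, and 1587 at 0.5 h, 1478, 1436, and 1769 at 2 h, and 2944, 2939, and 3020 at 12 h. The libraries at 0.5 and 2 h overlapped each other and lay between those at 0 h and 12 h. MB468res-R8 had 571, 594, and 537 at 0 h, 969, 972, and 1232 at 0.5 h, 872, 760, and 655 at 2 h, and 764, 756, and 848 at 12 h. There the 0.5 h libraries were the highest, and those at 2 and 12 h overlapped each other above 0 h. The response was 0.48 ± 0.0853, 0.48 ± 0.0866, and 1.40 ± 0.0816 in MB468 and 0.89 ± 0.0938, 0.43 ± 0.0957, and 0.47 ± 0.0954 in MB468res-R8, and all 6 passed the test (edgeR adjusted p from 7.31e-14 to 0.00653). With spike-in scaling 3 of them did not pass: those in MB468 at 0.5 h (0.27, edgeR adjusted p = 0.13) and 2 h (0.05, 0.771) and in MB468res-R8 at 2 h (0.39, 0.237). CEBPB and ATF5 were the 2 genes still higher at 12 h than at 0 h in MB468res-R8.

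CEBPG encodes a small C/EBP factor that forms heterodimers with ATF4 on its target sites, and its rise in MB468 came mostly after 2 h. In MB468 it had 3616, 3735, and 3964 normalized counts at 0 h, 4212, 4188, and 4248 at 0.5 h, 5618, 6037, and 5893 at 2 h, and 17794, 16510, and 16672 at 12 h. Each time point lay wholly above the one before. The log2 fold changes were 0.16 ± 0.0436 (edgeR adjusted p = 0.00306, of the opposite sign, -0.06, under spike-in scaling), 0.63 ± 0.0435 (6.83e-15, and 0.21 with edgeR adjusted p = 0.129 under spike-in scaling), and 2.17 ± 0.0434 (1.13e-33). In MB468res-R8 the 12 libraries stayed between 3050 and 4179, with 3050, 3413, and 3333 at 12 h against 3661, 3853, and 3661 at 0 h. The early changes there did not pass the test (0.07 ± 0.0436 at 0.5 h with edgeR adjusted p = 0.254, and 0.14 ± 0.0434 at 2 h with 0.0528, which was 0.0444 without replicate 2 at 0 h), and at 12 h CEBPG fell by 0.19 on the log2 scale (± 0.0438, 0.000245), which did not pass with spike-in scaling. The lines did not differ detectably at 0 h (-0.02 ± 0.0436, 95% interval -0.10 to 0.07), and at 12 h CEBPG was 5.21-fold lower in MB468res-R8 (edgeR adjusted p = 3.83e-35).

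TRIB3 and PPP1R15A act in feedback: TRIB3 encodes a pseudokinase induced by ATF4 and CHOP that can inhibit ATF4, and PPP1R15A encodes GADD34, the phosphatase subunit that removes the phosphate from eIF2. TRIB3 in MB468 had 3737, 3460, and 4172 normalized counts at 0 h, 5440, 5207, and 6608 at 0.5 h, 4991, 4675, and 4310 at 2 h, and 9673, 9235, and 9486 at 12 h. Its libraries dipped at 2 h, to just above 0 h, before the highest values at 12 h. The change was 0.60 ± 0.0975 at 0.5 h (edgeR adjusted p = 9.22e-05), 0.30 ± 0.0987 at 2 h (0.046), and 1.33 ± 0.0964 at 12 h (7.07e-10). The call at 2 h was lost without replicate 1 or 2 of MB468 at 0 h or at 2 h (edgeR adjusted p 0.102 to 0.198) and had the opposite sign, -0.12, under spike-in scaling. The dip from 0.5 to 2 h, of -0.30 ± 0.098 (edgeR adjusted p = 0.0263), was lost without MB468 replicate 3 at 0.5 h or replicate 2 or 3 at 2 h (0.0645 to 0.151).

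In MB468res-R8, TRIB3 had 4033, 4872, and 3883 normalized counts at 0 h, 5508, 5765, and 6004 at 0.5 h, 5064, 5295, and 4434 at 2 h, and 2590, 2568, and 2600 at 12 h. Each 12 h library was below every earlier one. The change was 0.43 ± 0.0966 at 0.5 h (edgeR adjusted p = 0.00179), 0.21 ± 0.0967 at 2 h (0.325), and -0.72 ± 0.0994 at 12 h (5.75e-06). TRIB3 showed no detectable difference between the responses at 0.5 h (-0.17 ± 0.137, 95% interval -0.46 to 0.12) and at 2 h (-0.09 ± 0.138, -0.38 to 0.20), and then differed by -2.05 ± 0.138 at 12 h (edgeR adjusted p = 5.33e-10).

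PPP1R15A rose stepwise in MB468, with 1422, 1355, and 1501 normalized counts at 0 h, 2627, 2396, and 2530 at 0.5 h, 3653, 3379, and 3179 at 2 h, and 5378, 5369, and 5179 at 12 h. In MB468res-R8 it had 1359, 1468, and 1357 at 0 h, 2561, 2476, and 2300 at 0.5 h, 1239, 1325, and 1328 at 2 h, and 879, 944, and 910 at 12 h. The lines overlapped at 0 h and at 0.5 h, and at 2 h every MB468 library was above every MB468res-R8 library. The rise at 0.5 h was 0.83 ± 0.0525 in MB468 and 0.81 ± 0.0525 in MB468res-R8, with a difference of -0.01 ± 0.0742 (edgeR adjusted p = 0.974, 95% interval -0.16 to 0.14). At 12 h the change was 1.90 ± 0.051 in MB468, or 3.73-fold (edgeR adjusted p = 1.39e-29), and -0.62 ± 0.0562 in MB468res-R8 (2.15e-12).

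CHAC1 encodes an enzyme that degrades glutathione and is a target of ATF4 and of CHOP, and in MB468 it had the largest response of the 10 genes at each time. MB468 libraries had 113, 131, and 126 normalized counts at 0 h, 1335, 1176, and 1606 at 0.5 h, 824, 981, and 1062 at 2 h, and 2580, 2608, and 2606 at 12 h. The groups did not overlap at any pair of time points. This was a rise of 11.0-fold at 0.5 h (3.46 ± 0.101, edgeR adjusted p = 1.8e-25), 7.74-fold at 2 h (2.95 ± 0.104, 5.16e-22), and 21.0-fold at 12 h (4.40 ± 0.0977, 8.88e-30). In MB468res-R8 it had 228, 243, and 225 at 0 h, 921, 945, and 1039 at 0.5 h, 333, 359, and 314 at 2 h, and 182, 181, and 186 at 12 h. Those libraries peaked at 0.5 h and ended below where they started. The rise was 4.17-fold at 0.5 h (2.06 ± 0.0935, edgeR adjusted p = 1e-19) and 1.46-fold at 2 h (0.54 ± 0.102, 0.00045), and CHAC1 was 1.27-fold lower at 12 h (-0.34 ± 0.112, 0.00859). With spike-in scaling the changes at 2 h (0.50, edgeR adjusted p = 0.073) and 12 h did not pass.

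FGF21 encodes a secreted hormone of metabolic stress and is a target of ATF4. In MB468 it had 126, 134, and 131 normalized counts at 0 h, 390, 278, and 450 at 0.5 h, 287, 324, and 219 at 2 h, and 323, 276, and 293 at 12 h. All later libraries were above 0 h and overlapped one another. The log2 fold changes were 1.50 ± 0.154 (edgeR adjusted p = 8.7e-10), 1.08 ± 0.16 (4.13e-06), and 1.20 ± 0.152 (1.51e-08), and the decline from 0.5 to 2 h, of -0.43 ± 0.149 (0.0244), was lost without MB468 replicate 1 or 3 at 0.5 h or replicate 3 at 2 h (0.113 to 0.203). MB468res-R8 libraries had 57.1, 72.7, and 87.6 at 0 h, 186, 217, and 215 at 0.5 h, 76.8, 95.1, and 61.7 at 2 h, and 19.7, 18.2, and 13.2 at 12 h. The 2 h libraries overlapped those at 0 h, and the 12 h libraries, which rest on 22, 16, and 14 raw counts, were the lowest. The change was 1.53 ± 0.175 at 0.5 h (edgeR adjusted p = 7.79e-09), 0.18 ± 0.192 at 2 h (0.811), and -2.05 ± 0.253 at 12 h (1.42e-08). The responses of the lines at 12 h differed 9.49-fold, and the level at 12 h was 17.4-fold lower in MB468res-R8 (9.58e-19), a difference that includes the 1.83-fold lower level at 0 h.

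**Figure D2:**
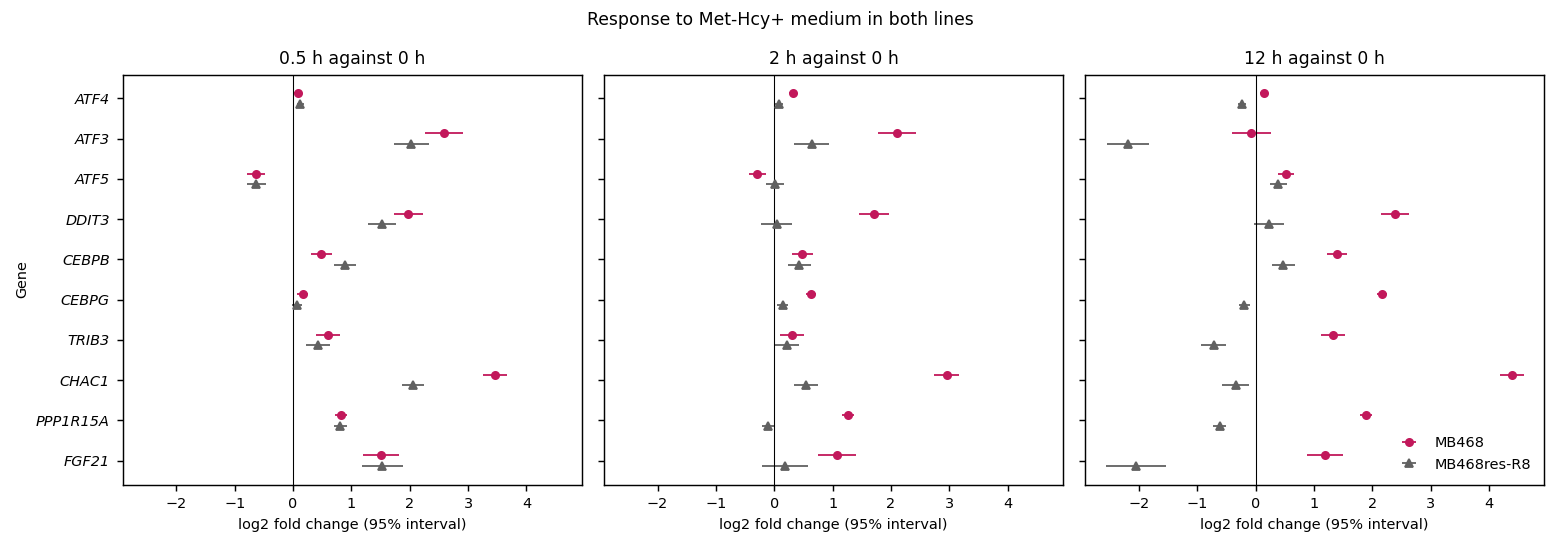
Log2 fold change against 0 h (horizontal axis) of each gene (rows) at 0.5, 2, and 12 h in MB468 (magenta circles) and MB468res-R8 (gray triangles), with bars for the 95% interval of edgeR's fit. The lines lie close together at 0.5 h for most genes and at 12 h are 4.74 apart for CHAC1 and 3.25 apart for FGF21; with spike-in scaling the MB468 values of ATF4 at all 3 times, CEBPG at 0.5 h, and TRIB3 at 2 h had the opposite sign.

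Whether the lines responded differently was tested on the difference of their responses, taken as MB468res-R8 minus MB468. At 0.5 h the difference was called for 1 of the 10 genes, CHAC1 (-1.40 ± 0.143, edgeR adjusted p = 1.59e-08), where 2.9% of all genes were called (1.2% higher, 1.7% lower). ATF3 (-0.56 ± 0.202, edgeR adjusted p = 0.202) and CEBPB (0.41 ± 0.127, 0.1) did not pass, and both did without MB468res-R8 replicate 1 at 0.5 h (0.0466 and 0.0458), which made 3 genes called. At 2 h the response of MB468res-R8 was lower for 7 genes (5.07% of all genes called, 2.19% higher and 2.88% lower): CHAC1 (-2.41 ± 0.149), DDIT3 (-1.68 ± 0.183), ATF3 (-1.46 ± 0.207), PPP1R15A (-1.36 ± 0.0755), FGF21 (-0.90 ± 0.251), CEBPG (-0.49 ± 0.0614), and ATF4. With spike-in scaling 4 genes were called lower and ATF5 was called higher at 2 h, where 931 of all genes were called, 866 of them higher. The call for FGF21 (edgeR adjusted p = 0.027) was lost on leaving out any 1 of 9 of the 12 libraries compared, which were all 3 of MB468 at 0 h, replicates 1 and 2 of MB468 at 2 h, replicates 2 and 3 of MB468res-R8 at 0 h, and replicates 1 and 3 of MB468res-R8 at 2 h (0.0529 to 0.107).

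At 12 h the response of MB468res-R8 was lower for 9 genes, all but ATF5, where 56.5% of all genes were called (26.2% higher, 30.3% lower). The largest difference was in CHAC1 (-4.74 ± 0.151, edgeR adjusted p = 3.9e-24), followed by FGF21 (-3.25 ± 0.294, 1.63e-11), PPP1R15A (-2.52 ± 0.0757, 3.92e-27), CEBPG (-2.36 ± 0.0612, 5.04e-29), DDIT3 (-2.17 ± 0.176, 1.16e-13), ATF3 (-2.11 ± 0.231, 4.54e-07), TRIB3 (-2.05 ± 0.138), CEBPB (-0.93 ± 0.126, 7.53e-07), and ATF4. The 95% intervals of the 5 genes from PPP1R15A to TRIB3 in that order ran from -2.67 to -1.62, and that of FGF21 (-3.84 to -2.65) met the first of them at its edge. The median over the 10 genes was -2.14, against -0.05 over all tested genes. With spike-in scaling 8 genes were called lower, and ATF4 did not pass (-0.11, edgeR adjusted p = 0.673). Under that scaling 5797 of all genes were called at 12 h, 4052 of them higher.

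**Figure D3:**
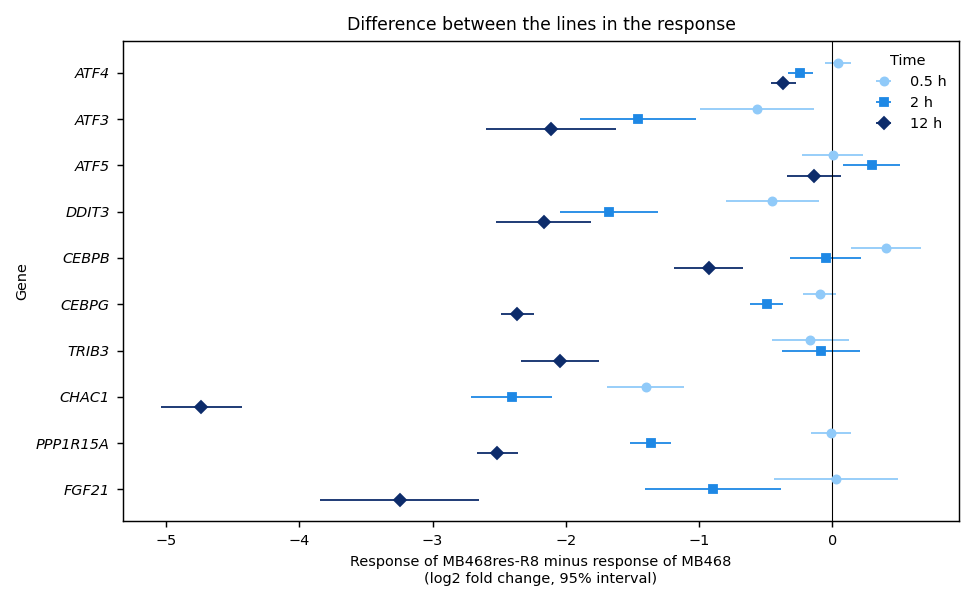
Response of MB468res-R8 minus response of MB468 (log2 fold change, horizontal axis) for each gene (rows) at 0.5 h (light circles), 2 h (squares), and 12 h (dark diamonds), with bars for the 95% interval. For CHAC1 the difference goes from -1.40 to -2.41 and -4.74, and for PPP1R15A from -0.01 to -1.36 and -2.52; ATF4 at 2 h had the opposite sign under spike-in scaling.

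The change from 2 to 12 h also differed between the lines. Between these times 7 genes rose and 2 fell in MB468 (69.7% of all genes called, 34.6% higher and 35.1% lower), and 1 rose and 7 fell in MB468res-R8 (62.5% called, 30.7% higher and 31.8% lower). The difference between these changes was negative and called for all 10 genes, where 55.8% of all genes were called (26.3% higher, 29.5% lower). With spike-in scaling 9 were called, ATF4 not passing (-0.24, edgeR adjusted p = 0.304), where 4891 of all genes were called, 1378 of them higher. For TRIB3, CEBPG, FGF21, CEBPB, and ATF5 the difference in this step was larger in size than that in the 2 h response, and for the other 5 genes it was smaller. The sizes were not tested against each other. TRIB3 rose by 1.02 ± 0.0965 in MB468 and fell by 0.93 in MB468res-R8 (± 0.0989), CHAC1 went 1.44 ± 0.0782 up and -0.89 ± 0.105 down, and CEBPG 1.54 ± 0.0426 up and -0.33 ± 0.0435 down. The last did not pass with spike-in scaling (-0.26, edgeR adjusted p = 0.0939). FGF21 did not pass the test in MB468 (0.12 ± 0.146) and fell by 2.23 in MB468res-R8 (± 0.245). ATF4 fell in both lines as well (with spike-in scaling, 0.0072 in MB468, of the opposite sign, and -0.24 in MB468res-R8, neither passing), and ATF3 fell by 2.17 on the log2 scale in MB468 and fell by 2.83 in MB468res-R8. The differences for ATF4 (-0.13 ± 0.0477, edgeR adjusted p = 0.0215), ATF3 (-0.65 ± 0.223, 0.0194), and DDIT3 (-0.49 ± 0.166, 0.0112) each lost the call without single libraries: ATF4 without MB468 replicate 2 at 2 h or 2 or 3 at 12 h or MB468res-R8 replicate 2 or 3 at 2 h or 1 or 3 at 12 h (0.0567 to 0.242), ATF3 without MB468 replicate 1 or MB468res-R8 replicate 1 or 3 at 12 h (0.0577 to 0.0809), and DDIT3 without MB468res-R8 replicate 2 at 2 h or 12 h (0.0522 to 0.086).

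**Figure D4:**
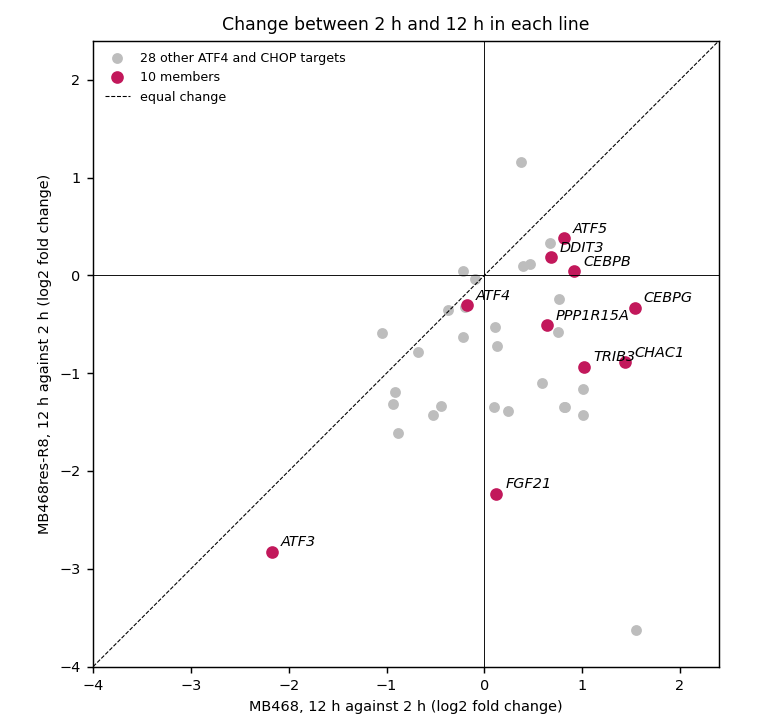
Log2 fold change from 2 h to 12 h in MB468 (horizontal axis) and MB468res-R8 (vertical axis) for the 10 genes (magenta, labelled) and 28 other ATF4 and CHOP target genes (gray), with a dashed line where both lines change equally. All 10 genes lie below the line; ATF3 is at -2.17 and -2.83, and CEBPG at 1.54 and -0.33, while ATF4 in MB468 had the opposite sign under spike-in scaling.

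The step from 0.5 to 2 h is given for each line on its own, since its difference between the lines was not tested. In MB468, 4 genes rose (ATF4, ATF5, CEBPG, and PPP1R15A) and 4 fell (ATF3, TRIB3, CHAC1, and FGF21), where 32.7% of all genes were called (16.3% higher, 16.5% lower). With spike-in scaling the 4 rises did not pass the test, and DDIT3 joined the genes called lower, making 5. Under that scaling 3696 of all genes were called, 677 of them higher. In MB468res-R8, 1 rose (ATF5) and 6 fell, where 35.3% were called (17.4% higher, 17.9% lower). DDIT3 fell by 1.49 in MB468res-R8 (± 0.118, edgeR adjusted p = 9.66e-14) and changed by -0.26 ± 0.111 in MB468 (0.0659, and 0.0273 without MB468 replicate 2 at 0.5 h). The drop of ATF3 in MB468 over this step (-0.49 ± 0.137, edgeR adjusted p = 0.0105) was lost without replicate 1 at 0.5 h (0.0613).

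In Met+ medium the lines already differed in 7 of the 10 genes (53.5% of all genes called, 26.4% higher and 27.1% lower in MB468res-R8). ATF3, CHAC1 (1.88-fold, edgeR adjusted p = 4.75e-08), and DDIT3 (1.25-fold, 0.0452) were higher in MB468res-R8. There CEBPB (1.98-fold, 1.99e-09), FGF21 (1.83-fold, 0.000114), ATF5 (1.62-fold, 1.18e-10), and ATF4 (1.10-fold, 0.000712) were lower. The DDIT3 libraries of the lines overlapped at 0 h, and its call was lost without MB468 replicate 1 or 3 or MB468res-R8 replicate 1 or 2 (edgeR adjusted p 0.0854 to 0.23). With spike-in scaling, which put the median of all genes at -0.31, 2 genes were called higher and 6 lower, and DDIT3 was at 0.01 (edgeR adjusted p = 0.959). Under that scaling 7639 of all genes were called at 0 h, 1144 of them higher. At 12 h all 10 genes were called lower in MB468res-R8 (73.1% of all genes called, 33.9% higher and 39.2% lower). The differences ran from 1.42-fold for ATF4 up to 14.2-fold for CHAC1 and 17.4-fold for FGF21.

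Expressed per length (RPKM, read density scaled by exon length and library total), ATF4 was the highest of the 10 in all 8 groups, at 432 ± 1.81 (SD, n = 3) in MB468 at 0 h and 335 ± 4.81 in MB468res-R8 at 12 h. TRIB3 was the next at 0 h in both lines (50.6 ± 4.80 and 56.9 ± 7.11 RPKM), ATF3 in MB468res-R8 at 0.5 h (96.5 ± 18.2), and CEBPG in MB468 at 12 h (184 ± 7.58). CHAC1 went from the lowest level in MB468 at 0 h (2.64 ± 0.197 RPKM), next to DDIT3 (2.72 ± 0.361) with overlapping libraries, to 55.7 ± 0.337 RPKM at 12 h. FGF21 in MB468res-R8 at 12 h was the lowest level of all, at 0.555 ± 0.110 RPKM.

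A list of 28 other ATF4 and CHOP targets was chosen with earlier results of these data known. They act in amino acid uptake and synthesis, growth control, and cell death, among other processes. In MB468, 14 rose and 3 fell at 0.5 h, 15 rose at 2 h, and 18 rose and 8 fell at 12 h (of all genes, 33.9%, 16.3%, and 70.8% were called), with a median log2 fold change of 0.37 at 12 h against 0.01 over all genes. With spike-in scaling 8 rose and 3 fell at 0.5 h, 4 rose and 11 fell at 2 h, so that most calls at 2 h had the other direction, and 12 rose and 8 fell at 12 h. The list's medians were then -0.07, -0.20, and 0.14, against -0.20, -0.42, and -0.23 over all genes. In MB468res-R8, 13 rose and 4 fell at 0.5 h, and 3 rose and 2 fell at 2 h (33.7% and 4.37% of all genes called). The list's median at 0.5 h was 0.13 there and 0.15 in MB468. With spike-in scaling 8 rose and 3 fell at 0.5 h in MB468res-R8, and 0 were called at 2 h. At 12 h 3 rose and 22 fell there (61.3% of all genes called), with a median of -0.67 against -0.02 over all genes. Spike-in scaling at 12 h left 3 higher and 19 lower. SESN2, an inhibitor of mTORC1 signaling, rose by 3.05 ± 0.0888 in MB468 and did not pass in MB468res-R8 (-0.17 ± 0.0925, edgeR adjusted p = 0.113), and DDIT4, another such inhibitor, rose by 2.25 ± 0.0676 and by 1.02 ± 0.0674. The enzymes ALDH1L2, of mitochondrial folate metabolism, and ASNS, asparagine synthetase, fell in both lines, by 1.08 and 0.95 in MB468 and by 1.32 and 1.15 in MB468res-R8. The difference between the lines at 12 h was called lower for 20 of these 28, with a median of -0.80 against -0.05 over all genes. Of all genes 56.5% were called there (26.2% higher, 30.3% lower). Spike-in scaling left 15 called lower, where 5797 of all genes were called, 4052 of them higher. The list's median was then -0.53, against 0.20 over all genes. GDF15, a secreted stress cytokine singled out after its values were seen, rose by 1.55 ± 0.314 in MB468 and fell by 3.62 in MB468res-R8 (± 0.62) from 2 h to 12 h.

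Upstream of ATF4, 15 genes of the eIF2 kinases, their regulators (GCN1, IMPACT, and DNAJC3), eIF2, and its exchange factor eIF2B moved in small steps. In MB468, 3 rose and 1 fell at 0.5 h, and 7 rose and 5 fell at 12 h, where 33.9% and 70.8% of all genes were called. In MB468res-R8, 11 rose and 3 fell at 12 h, where 61.3% were called. With spike-in scaling 1 rose and 5 fell in MB468 and 6 rose and 1 fell in MB468res-R8 at 12 h. EIF2B2, a subunit of eIF2B, rose by 0.57 ± 0.0566 and IMPACT, an inhibitor of the eIF2 kinase GCN2, by 0.41 ± 0.0685 in MB468 at 12 h, the latter not passing with spike-in scaling (0.17, edgeR adjusted p = 0.278). EIF2B5, the catalytic subunit of eIF2B, fell by 0.49 and EIF2S3, a subunit of eIF2, by 0.33 there, and both rose in MB468res-R8 (0.27 ± 0.0424 and 0.41 ± 0.0381), EIF2B5 there not passing with spike-in scaling (0.30, edgeR adjusted p = 0.0563). The phosphorylation of eIF2, through which the pathway is switched, is not seen in RNA.

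The other branches of the unfolded protein response, were read from 18 targets of ATF6 and XBP1. Of these, 8 rose and 7 fell in MB468 at 12 h (36.1% of all genes higher, 34.7% lower), and 2 rose and 7 fell in MB468res-R8 (30.2% and 31.1%), with medians of 0.04 and -0.08. With spike-in scaling 2 rose and 7 fell in MB468 and 1 rose and 4 fell in MB468res-R8. ERN1, the stress sensor that splices the XBP1 mRNA, rose by 1.19 ± 0.0929 and the chaperone DNAJB9 by 0.97 ± 0.0792 in MB468 at 12 h; in MB468res-R8 ERN1 did not pass (-0.19 ± 0.107) and DNAJB9 fell by 0.59. The chaperones PDIA4 and CALR fell by 0.76 and 0.60 in MB468 and did not pass in MB468res-R8 (0.03 ± 0.0419 and 0.07 ± 0.0381).

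A list of other bZIP factors, the family to which ATF and C/EBP proteins belong, held 18 tested genes. It includes CEBPZ, whose protein has no bZIP domain despite its symbol. Of the 18, 11 rose and 1 fell in MB468 at 12 h (36.1% of all genes higher, 34.7% lower). In MB468res-R8, 5 rose and 9 fell (30.2% and 31.1%). With spike-in scaling 4 rose and 1 fell in MB468, and 4 rose and 7 fell in MB468res-R8. NFIL3, a repressor of the family, rose by 2.24 ± 0.0912 in MB468 and did not pass in MB468res-R8 (-0.13 ± 0.101), and TEF fell by 0.86 in MB468 and by 1.16 in MB468res-R8. ATF6B was called higher in MB468 at 12 h (1.41 ± 0.496, edgeR adjusted p = 0.013) through replicate 2 alone. Its libraries had 14.7, 87.4, and 12.0 normalized counts, against 12.6, 11.2, and 16.9 at 0 h. Without replicate 2 at 12 h the value was 0.01 (edgeR adjusted p = 0.978). The call was also lost without replicate 2 at 0 h (1.28, edgeR adjusted p = 0.0556).

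Across the 24 libraries, genes with a course like that of each member were found by Pearson's correlation of log2 CPM among 11866 genes, as a description in which the points share group, depth, and scaling. CHAC1 was most like SESN2 (0.981) and DDIT3 (0.967), and DDIT3 most like ARID5B (0.976) and SESN2 (0.972). ATF3 was most like NR4A2 (0.969) and FOSB (0.966), both immediate early genes. PPP1R15A was most like GADD45B (0.975), CEBPG like RBM15 (0.974), CEBPB like RAD54L (0.974), and ATF5 like BRD9 (0.966). TRIB3 was nearest to SARS (0.952), the serine tRNA synthetase gene, and JDP2 (0.95), FGF21 to ERBB3 (0.953), and ATF4 to CCDC82 (0.951).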

How the data were processed

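Poly(A) RNA was sequenced in 24 libraries with ERCC spike-ins. Per the labels and methods, the authors aligned single-end reads with HISAT2 2.1.0 to GRCh38/hg38 joined with the spike-ins. They counted the reads per gene with featureCounts (Subread 1.5.3). The deposited table holds raw counts; strand setting and annotation release are not given in the sources used here. The deposited table of normalized counts and the authors' own comparisons (fold changes, standard errors, p-values) were not used.

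Samples were grouped by line and time from the labels. Counts without the 92 spike-ins were fitted with edgeR 4.0.16 in R 4.3.3, using filterByExpr (minimum count 10, minimum total 15), TMM factors, glmQLFit with robust dispersions over all 8 groups, glmQLFTest for 16 contrasts, and Benjamini-Hochberg adjustment over 14741 genes. Normalized counts are counts divided by the effective library size times its mean. Intervals are 95% intervals of the fit. Replicates are taken as separate cultures; nothing states how they were handled, so p-values measure the spread between these libraries. The members, lists, and rules were chosen with earlier results of these data known. All 10 members are named in every comparison; of each other list, those 2 called with the largest rise and the largest fall in MB468 at 12 h are named, and for likeness up to 3 genes. RPKM used GENCODE 44 exon lengths. RefSeq promoter windows were read from a table of GRCh38.p14.

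Alternatives were DESeq2's size factors and Wald test (DESeq2 1.42.0), spike-in totals as library sizes, no filter, at least 10 counts in every library, a replicate block, only the libraries compared, an adjusted p of 0.01, and leaving out each library. For the lists other than the members, spike-in totals and leaving out each library at 12 h and 0 h were tried after seeing the data. Tested on simulated data for MB468 at 12 h against 0 h (14472 genes), the code called 98% of 200 changed genes, 92% of those changed by 1.5-fold, and 5.77% of its calls were unchanged genes. The 200 were drawn only from genes above a limit on the mean count, and no other gene was changed. In the data 70.8% of genes were called in this comparison. The simulated rates therefore do not cover low counts or so broad a change.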

Additional observations from a re-analysis of the deposited data

Results flagged for a closer look

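The results listed here are those in which the responses of the lines (MB468res-R8 minus MB468) differed by edgeR's quasi-likelihood test after Benjamini-Hochberg adjustment; all of them were negative, and the cause was not tested. At 0.5 h this was CHAC1 at -1.40. At 2 h the differences were -0.24 for ATF4, -1.46 for ATF3, -1.68 for DDIT3, -0.49 for CEBPG, -2.41 for CHAC1, -1.36 for PPP1R15A, and -0.90 for FGF21. At 12 h they were -0.37 for ATF4, -2.11 for ATF3, -2.17 for DDIT3, -0.93 for CEBPB, -2.36 for CEBPG, -2.05 for TRIB3, -4.74 for CHAC1, -2.52 for PPP1R15A, and -3.25 for FGF21. For the change from 2 h to 12 h they were -0.13 for ATF4, -0.65 for ATF3, -0.43 for ATF5, -0.49 for DDIT3, -0.88 for CEBPB, -1.87 for CEBPG, -1.96 for TRIB3, -2.33 for CHAC1, -1.15 for PPP1R15A, and -2.35 for FGF21.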

How the results depend on the processing

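The number of members called moved by over 1.5 times in these cases, and the cause was not tested. An adjusted p of 0.01 left 5 of the 8 called in MB468 at 2 h against 0.5 h. Spike-in totals as library sizes left 6 of the 10 called in MB468 at 2 h, 1 of the 3 in MB468res-R8 at 2 h, and 5 of the 8 in MB468 at 2 h against 0.5 h. For the line difference at 0.5 h, where 1 member was called, no low-count filter gave 3, DESeq2's Wald test 2, the fit to only the libraries compared 2, and leaving out single libraries 1 to 3. The changes that reversed did so with spike-in totals as library sizes: ATF4 in MB468 at 0.5 h (-0.13), 2 h (-0.10), 12 h (-0.10), and from 2 to 12 h (0.0072), ATF4 in the line difference at 2 h (0.14), CEBPG in MB468 at 0.5 h (-0.055), and TRIB3 in MB468 at 2 h (-0.12). Of the 160 member changes, 127 kept direction and call under that scaling, 157 with DESeq2's size factors, 157 with DESeq2's Wald test, 152 with no low-count filter, 159 with at least 10 counts in every library, and 152 in the fit to only the libraries compared.

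With the replicate number as a block, 158 of 160 kept direction and call; DDIT3 between the lines at 0 h (0.32, edgeR adjusted p = 0.0545) and TRIB3 in MB468 at 2 h (0.30, 0.0682) lost it, and no other call changed. The numbers were not taken as pairing the libraries, since in no comparison did every same-numbered pair correlate above 0.1; the highest mean, 0.277, was in MB468res-R8 at 2 h (-0.0294 to 0.466). Depth limits FGF21 in MB468res-R8 at 12 h most, at 14 to 22 counts. For the other lists, alternatives chosen after seeing the data gave the spike-in counts stated beside each list, and leaving out 1 library left 23 to 26 of the 28 further ATF4 and CHOP targets called in MB468 at 12 h and 24 to 25 in MB468res-R8.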

Other observations

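Relatives of the members and the receptors of FGF21 were read as a further list, of which 8 of 10 genes were tested; FGF19 and KLB, the co-receptor of FGF21, did not pass the filter on low counts. In MB468 at 12 h, 4 rose and 2 fell (70.8% of all genes called; 3 and 4 with spike-in totals as library sizes), and in MB468res-R8 2 rose and 2 fell (61.3% of all genes called). TRIB1, a pseudokinase related to TRIB3, rose by 2.65 ± 0.05 at 0.5 h, 1.23 ± 0.0515 at 2 h, and 0.94 ± 0.0501 at 12 h in MB468 (log2 fold change ± SE) and did not pass in MB468res-R8 at 12 h (-0.03 ± 0.0524). TRIB2 fell by 0.45 at 0.5 h and rose by 0.85 ± 0.0491 at 12 h in MB468, and its rise in MB468res-R8 at 12 h was 0.82 ± 0.0482, with a difference between the lines of -0.03 ± 0.0687 that did not pass the test. The receptor genes FGFR4 and FGFR3 fell by 0.76 and 0.52 in MB468 at 12 h and did not pass in MB468res-R8 (0.04 ± 0.0789 and 0.17 ± 0.133).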
